A study of Mus musculus with 6 samples.

Results

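The genes examined here build the MHC class I and class II antigen presentation pathways of the mouse, whose MHC is called H2. They were chosen by name: every gene whose symbol starts with H2-, together with B2m, Cd74, Ciita, Nlrc5, Tap1, Tap2, Tapbp, Tapbpl, Erap1, Psmb8, Psmb9, Psmb10, Psme1, Psme2, Ctss, Ifi30 and Cd1d1. Of 13696 genes listed in the tables, 39 matched: 26 of the class I pathway, 12 of the class II pathway, and H2-Ke6. H2-Ke6 carries the H2- prefix because of its position but encodes a hydroxysteroid dehydrogenase, so it is described apart. Ifi30 was the 1 named gene that was not listed.

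Total RNA from whole kidney was sequenced in 6 libraries from 24-month-old mice. The WT group held 3 libraries and the group labelled fat-1 knockin (fat-1 below) the other 3; fat-1 comes from a nematode and encodes an enzyme that makes omega-3 out of omega-6 fatty acids. The labels name no strain, promoter, insertion site or treatment, and they do not say whether each library came from its own animal, so p-values measure only the spread between these libraries. Expression of the inserted gene was not analysed here, so nothing in the data checks the genotype labels. The series' stated aim is to follow what fat-1 changes in the aged kidney.

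MHC class I molecules are present on almost all nucleated cells. A heavy chain paired with beta-2-microglobulin carries peptides that the proteasome cuts from cytosolic proteins and that the TAP transporter moves into the endoplasmic reticulum. MHC class II molecules are alpha-beta pairs found mainly on dendritic cells, macrophages and B cells; they are escorted by the invariant chain (Cd74), load peptides in endosomes and present them to CD4+ T cells. Interferon-gamma raises both pathways, through the transactivators Nlrc5 for class I and Ciita for class II. Both transactivators lack a DNA-binding domain of their own and dock on factors bound at a short promoter module, the X and Y boxes; the Y box is a CCAAT element read in reverse, ATTGG.

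Promoter sequences are shown first as background on the X and Y boxes. Whether they bear on the expression values below was not tested. RefSeq promoter windows (assembly GRCm38.p6, which mm10 corresponds to; 250 bases before to 50 bases after each gene's start) were held for 30 of the 39 genes. The stretch from 150 bases before to 20 bases after the start is printed for a class I heavy chain, the class I light chain, a class II alpha and a class II beta chain, and for H2-Ke6 as the gene without an MHC product. H2-K1 is at chr17:34000328-34000497 on the minus strand, B2m at chr2:122147537-122147706 on the plus strand, H2-Aa at chr17:34287804-34287973 on the minus strand, H2-Eb1 at chr17:34305717-34305886 on the plus strand and H2-Ke6 at chr17:34028036-34028205 on the minus strand. Each sequence reads 5′ to 3′ in the direction of the gene, and capitals mark TGANG, a core of the second part of the X box, where it pairs with ATTGG, and any CCAAT or ATTGG, GGGATTCCC (an NF-kappaB palindrome) or TTTCNNTTT in either direction (the core of the interferon-stimulated response element).
H2-K1: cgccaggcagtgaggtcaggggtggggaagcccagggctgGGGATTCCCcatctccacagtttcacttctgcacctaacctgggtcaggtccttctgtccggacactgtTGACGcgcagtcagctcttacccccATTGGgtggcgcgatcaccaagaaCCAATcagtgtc
B2m: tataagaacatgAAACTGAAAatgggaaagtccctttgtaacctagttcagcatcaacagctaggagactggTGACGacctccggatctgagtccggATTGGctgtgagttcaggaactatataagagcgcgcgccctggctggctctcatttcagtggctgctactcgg
H2-Aa: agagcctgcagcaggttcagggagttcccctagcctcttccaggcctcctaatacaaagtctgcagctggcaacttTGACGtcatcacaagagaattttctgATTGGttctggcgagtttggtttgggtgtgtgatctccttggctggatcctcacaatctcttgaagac
H2-Eb1: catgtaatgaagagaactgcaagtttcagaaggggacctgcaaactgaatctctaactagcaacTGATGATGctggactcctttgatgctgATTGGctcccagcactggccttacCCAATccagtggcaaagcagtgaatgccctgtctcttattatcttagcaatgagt
H2-Ke6: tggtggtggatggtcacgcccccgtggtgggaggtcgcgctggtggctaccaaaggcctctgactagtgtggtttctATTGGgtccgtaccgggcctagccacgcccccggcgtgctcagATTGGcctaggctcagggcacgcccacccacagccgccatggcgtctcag

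The 4 MHC promoters shared a TGANG followed, after a gap of 20 bases in H2-K1 and B2m, 21 in H2-Aa and 19 or 22 in H2-Eb1, by ATTGG. H2-Ke6 held ATTGG at 2 places but no such pair. Searched on both strands of the full windows with a gap of 18 to 24 bases, the pair was found in 7 of 20 class I and 5 of 9 class II windows, against 1.88% of 27025 windows of all genes. The gap range was set after these sequences had been seen, and the related class I genes share ancestry, so the windows are not independent. The 12 genes with the pair were B2m, H2-D1, H2-K1, H2-M3, H2-Q4, H2-Q6, H2-Q7, H2-Aa, H2-DMb1, H2-DMb2, H2-Eb1 and H2-Eb2.

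The single letters of the Y box were common everywhere. CCAAT on either strand, which the pair also contains, was in 14 of 20 class I and 7 of 9 class II windows and in 37.9% of all windows. GGGATTCCC was in the windows of H2-D1, H2-K1, H2-Q6 and H2-Q7, 4 of 20 class I and 0 of 9 class II, against 0.37% of all. TTTCNNTTT was in 5 of 20 class I (B2m, Erap1, H2-T22, H2-T23, Psme1) and 2 of 9 class II windows (Ctss, H2-Oa), against 10.7% of all. TTCNNNGAA, the core of the interferon-gamma-activated (GAS) element, was in 2 of 20 and 1 of 9 against 8.47%. The windows of Psmb9 and Tap1, which are transcribed away from each other, overlapped by 275 bases and count as nearly the same sequence. A match describes letters only; factor binding was not measured.

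Expression values are FPKM, which count fragments relative to transcript length and to all mapped fragments, here summed over each gene's listed transcripts. Listed genes summed to between 387488 and 431081 FPKM per library, and the read depth is unknown. Lrp2, the endocytic receptor of proximal tubules, lay between 107 and 170 FPKM and Umod, of the thick ascending limb, between 425 and 1034 FPKM, so nephron markers were present in all 6 libraries.

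WT replicate 1 stands apart from the other 5 libraries for these genes, and comparisons between the groups are therefore given with and without it. It was the highest of the 6 libraries for 38 of the 39 genes, while 27% of all listed genes had their highest value there. It exceeded the next highest library at least 2-fold, on FPKM + 1, for 29 of 39 (19 of 26 class I and 10 of 12 class II), against 2.57% of all listed genes (352 of 13696). For 0 of the 39 did any other library exceed the rest 2-fold. The ratio of WT replicate 1 to the median of the other 5 libraries had a median of 5.13 over class I, 8.79 over class II and 1.08 over all listed genes. The 39 genes together made up 2.36% of the listed FPKM in WT replicate 1 and 0.267% to 0.715% in the others.

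The other libraries kept an order of their own. fat-1 replicate 3 was second for 34 of the 39 genes, an order found in 23.1% of listed genes, and WT replicate 2 or 3 was lowest for 35, against 42.8% of listed genes. The WT group therefore held both the highest and the lowest libraries.

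**Figure D1:**
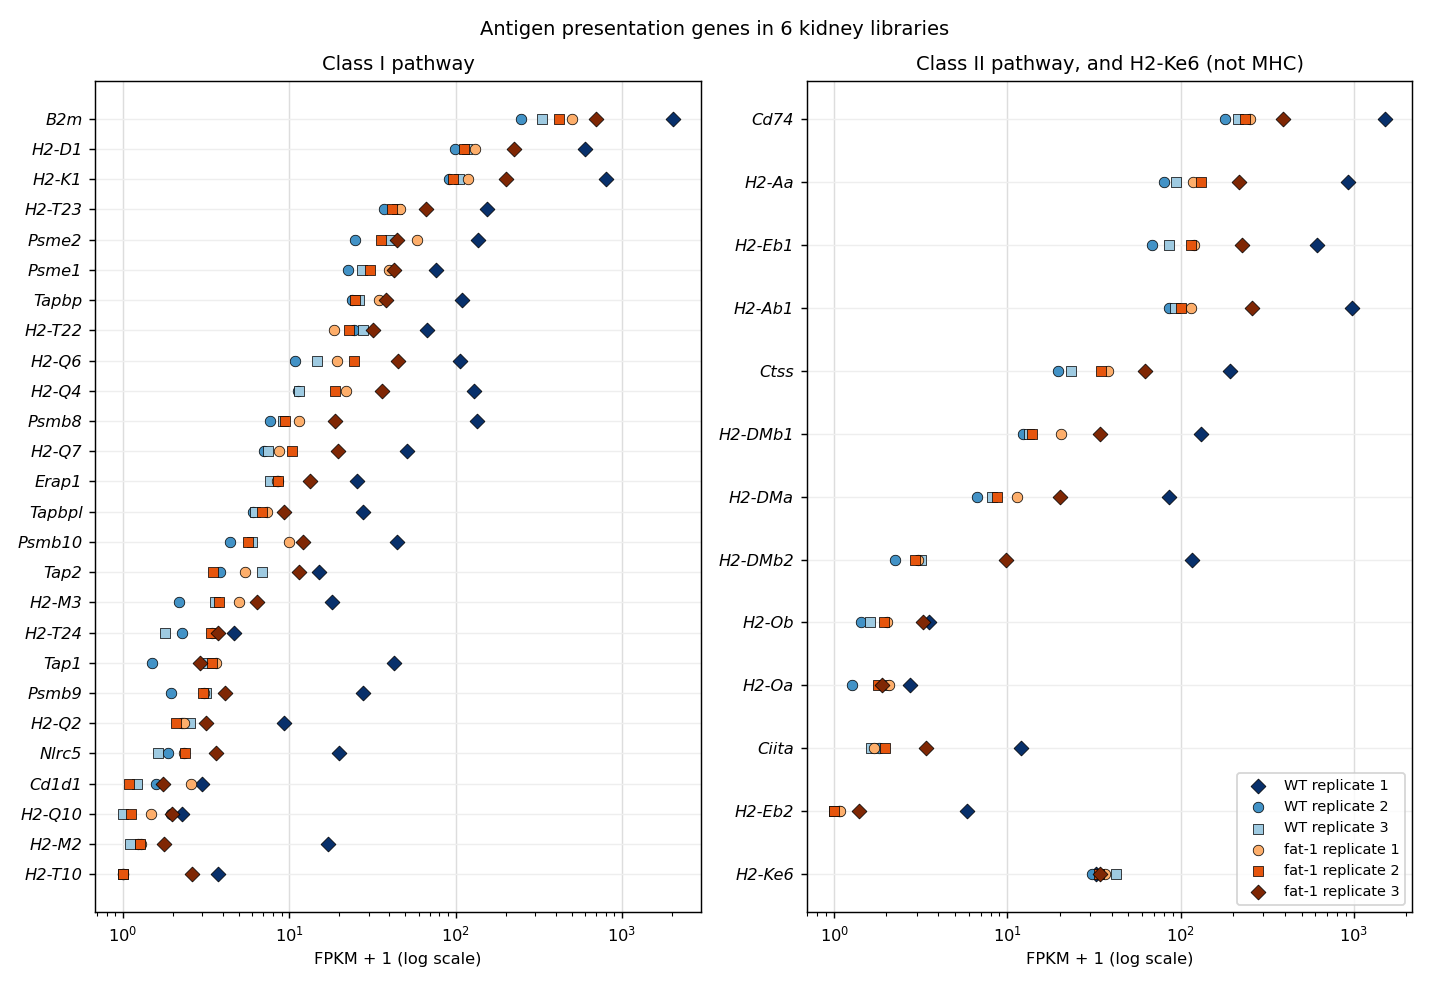
Each row is a gene and each symbol 1 library (WT in blues, fat-1 in oranges), plotted as FPKM + 1 on a log axis, with class I on the left and class II with H2-Ke6 on the right. The dark blue diamond of WT replicate 1 is the rightmost symbol in every row but that of H2-Ke6, and fat-1 replicate 3 (dark brown diamond) is usually second.

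Among the class I heavy chains, H2-K1 and H2-D1 are the classical ones, which present peptides to CD8+ T cells. H2-K1 (chr17:33996017-34000333) measured 797 FPKM in WT replicate 1, 90.3 and 105 FPKM in WT replicates 2 and 3, and 118, 95.8 and 200 FPKM in fat-1 replicates 1 to 3. H2-D1 (chr17:35262730-35267499) measured 595, 98.3 and 116 FPKM in WT and 131, 112 and 223 FPKM in fat-1. In both genes WT replicate 1 was far above all others and the other 2 WT libraries overlapped with the lower fat-1 libraries. The group means were 330 ± 404 FPKM in WT against 138 ± 54.7 FPKM in fat-1 for H2-K1 (SD, n = 3 each).

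The log2 difference, fat-1 minus WT on log2(FPKM + 1), was -0.58 ± 0.83 (SE) for H2-K1 and -0.35 ± 0.69 for H2-D1 in limma fitted over all genes, with Benjamini-Hochberg adjusted p of 0.91 and 0.951. The sign turned when WT replicate 1 was left out, to 0.43 ± 0.31 (adjusted p = 0.613) and 0.47 ± 0.30 (adjusted p = 0.562). In neither fit did a difference pass an adjusted p under 0.05. With 6 libraries each was smaller than its SE, and without WT replicate 1 each was larger.

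The nonclassical heavy chains, 11 listed genes of the H2-Q, H2-T and H2-M groups, are less variable between mice and have more specialised ligands. H2-T23 encodes Qa-1, which presents leader peptides of other class I chains to receptors on NK cells and T cells. Its level was 153 FPKM in WT replicate 1 and 36.3 to 65.7 FPKM elsewhere. H2-Q4, encoding Qb-1, spanned a wider range, at 128, 10.2 and 10.4 FPKM in WT and 20.9, 17.8 and 35.1 FPKM in fat-1. H2-M3, which presents formylated peptides, measured 17.1, 1.19 and 2.60 FPKM in WT and 3.98, 2.77 and 5.37 FPKM in fat-1. For H2-Q4 and H2-M3 every fat-1 library lay above WT replicates 2 and 3 and below WT replicate 1.

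H2-T22, a ligand of some gamma-delta T cells, moved least with WT replicate 1 among the more abundant heavy chains. Its values were 65.9, 23.6 and 26.7 FPKM in WT and 17.6, 21.8 and 30.9 FPKM in fat-1, and its log2 difference was -0.58 ± 0.41 (SE; limma adjusted p = 0.758, the lowest among the antigen presentation genes tested). It was also the 1 class I gene whose difference stayed negative without WT replicate 1 (-0.13 ± 0.24, adjusted p = 0.854). H2-T24 measured 3.68, 1.28 and 0.794 FPKM in WT and 2.45, 2.42 and 2.72 FPKM in fat-1, so WT replicate 1 exceeded the next library only 1.35 times. Its log2 difference was 0.40 ± 0.35 (SE; adjusted p = 0.834), and it moved with the library left out, to 0.11 without WT replicate 3 and to 0.80 without WT replicate 1. A pseudocount of 0.1 gave 0.65.

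The low heavy chains gave little beyond WT replicate 1. H2-M2 was at 16.0 FPKM there and between 0.113 and 0.779 FPKM elsewhere. H2-T10 was listed at 0 in 4 libraries and at 2.73 FPKM in WT replicate 1 and 1.61 FPKM in fat-1 replicate 3, and H2-Q10 reached at most 1.26 FPKM. Reads of near-identical heavy chains can be divided between genes. Of the 50-base words in the main transcript of H2-T10, 40.2% also occurred in H2-T22, and for H2-Q6 the share found in any other listed heavy chain was 18.8%. It was 8.79% for H2-K1 and 11.4% for H2-D1, so single values, above all of H2-T10 and H2-T22, are uncertain.

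Summing over the 13 heavy chain genes is less affected by that division. The sums were 1944, 280 and 326 FPKM in WT and 367, 328 and 631 FPKM in fat-1. On the log2 scale fat-1 minus WT was -0.41, with an exact two-sided permutation p of 1 over 20 arrangements of 3 against 3 libraries (1 after Benjamini-Hochberg adjustment over the 2 sums tested; the smallest p this design allows is 0.1). With WT replicate 1 left out it was 0.49 (exact permutation p = 0.4, smallest possible 0.1).

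Beta-2-microglobulin, the light chain shared by the class I molecules (B2m, chr2:122147686-122153083), was the most abundant of the genes. It measured 2038, 247 and 329 FPKM in WT and 503, 417 and 701 FPKM in fat-1. Every fat-1 library lay between WT replicate 1 above and WT replicates 2 and 3 below. The log2 difference was -0.06 ± 0.76 (SE; adjusted p = 0.993) with 6 libraries and 0.89 ± 0.25 without WT replicate 1 (adjusted p = 0.206).

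Nlrc5, the class I transactivator, was at 19.0 FPKM in WT replicate 1 and at 0.883 and 0.622 FPKM in WT replicates 2 and 3. In fat-1 it was at 1.32, 1.38 and 2.65 FPKM, above the lower WT pair in all 3. Its log2 difference moved from -0.53 ± 0.94 (SE; adjusted p = 0.941) to 0.64 ± 0.25 (adjusted p = 0.343) when WT replicate 1 was left out.

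Peptide supply to class I begins at the proteasome. Psmb8, Psmb9 and Psmb10 are the immunoproteasome subunits that replace Psmb5, Psmb6 and Psmb7 after interferon signals. Psmb8 measured 133, 6.69 and 8.18 FPKM in WT and 10.4, 8.39 and 17.9 FPKM in fat-1. Psmb9 measured 26.7, 0.962 and 2.18 FPKM in WT and 2.08, 2.02 and 3.13 FPKM in fat-1. These are among the steepest patterns of the pathway, with WT replicate 1 at 7.43 times the next library for Psmb8 and 8.51 times for Psmb9. The standard subunits did not follow: Psmb5 stayed between 94.9 and 156 FPKM, with WT replicate 1 at 101 FPKM.

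Set against the standard subunit of the same library, Psmb8 over Psmb5 was 1.32 in WT replicate 1 and 0.0589 to 0.169 in the others. Psmb9 over Psmb6 was 0.172 against 0.00632 to 0.0209, and Psmb10 over Psmb7 was 0.419 against 0.0285 to 0.111. Psmb8 was thus above its standard partner in WT replicate 1 alone. Psme1 and Psme2 form the interferon-inducible proteasome activator. Psme1 over Psme3, the subunit of the nuclear activator, was 2.31 in WT replicate 1 and 0.614 to 1.41 elsewhere, and fat-1 replicate 3 was the next highest for all 4 ratios.

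**Figure D2:**
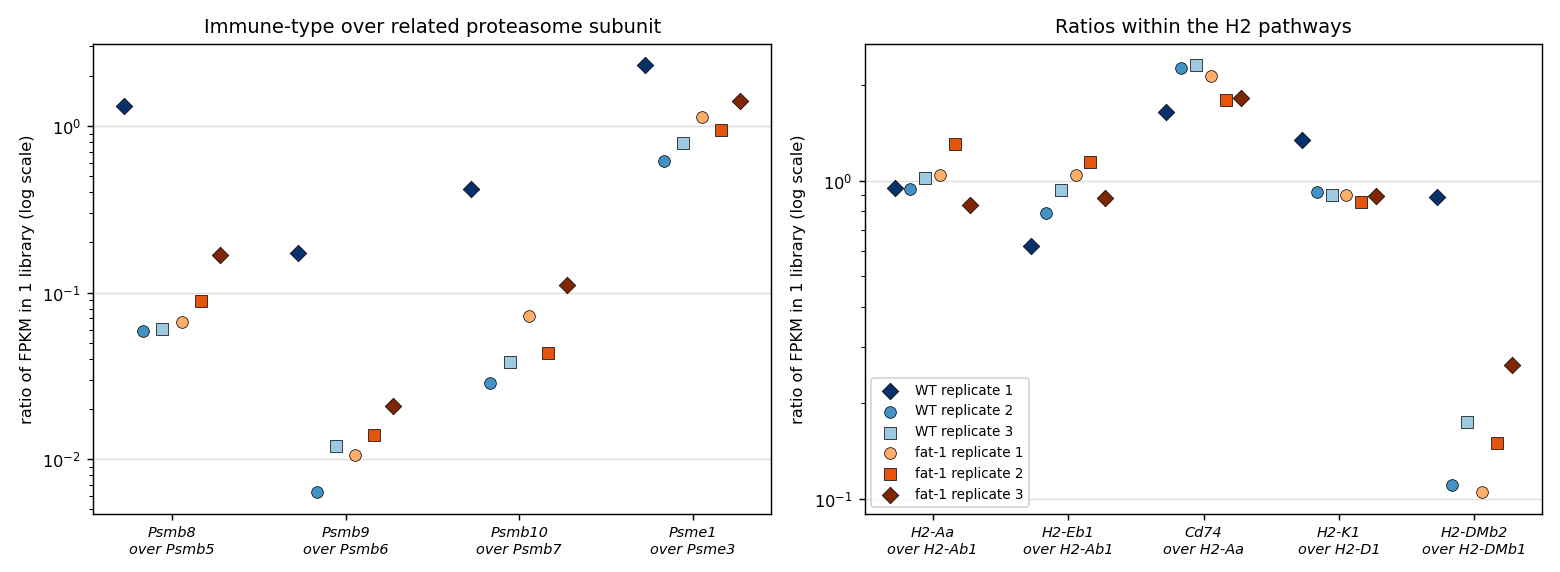
Each symbol is the ratio of 2 genes' FPKM within 1 library, on log axes; the left panel sets immune-type against related proteasome subunits and the right panel compares chains of the H2 pathways. WT replicate 1 is highest in all 4 proteasome ratios, while H2-Aa over H2-Ab1 stays between 0.836 and 1.30 in all 6 libraries.

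Tap1 and Tap2 form the peptide transporter. Tap1 measured 41.7, 0.496 and 2.26 FPKM in WT and 2.63, 2.44 and 1.91 FPKM in fat-1, so WT replicate 1 exceeded the next library 15.8 times. Tap2, its partner, was at 14.2 FPKM there and at 2.50 to 10.5 FPKM elsewhere, 1.35 times the next library. The 2 subunits of the transporter therefore differed in how far the listed value of WT replicate 1 stood out. The Tap1 ratio rests on low values, at most 2.63 FPKM outside WT replicate 1. Its transcript Tap1-201 was at 38.4 FPKM in WT replicate 1 but listed at 0 in WT replicate 2 and fat-1 replicate 3. How reads were divided between transcripts can set such values. Tapasin (Tapbp), which tethers class I to TAP, was at 108 FPKM in WT replicate 1 and at 22.9 to 37.4 FPKM elsewhere. Its relative Tapbpl, an editor of class I peptides, was at 26.8 FPKM against 5.05 to 8.31 FPKM, and Erap1, which trims peptides, at 24.5 FPKM against 6.64 to 12.4 FPKM.

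The 10 peptide supply genes summed to 629, 95.5 and 127 FPKM in WT and 172, 122 and 188 FPKM in fat-1. The log2 difference was -0.84 ± 1.14 (SE; adjusted p = 0.905) for Tap1, -0.74 ± 1.06 (adjusted p = 0.91) for Psmb8 and -0.72 ± 0.93 (adjusted p = 0.895) for Psmb9. Leaving out WT replicate 1, the 3 values were 0.58, 0.59 and 0.43, with adjusted p between 0.466 and 0.554. Cd1d1, a class I-like molecule that presents lipids to NKT cells, lay between 0.0970 and 2.01 FPKM and was too low to be tested.

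The classical class II chains form the I-A molecule (H2-Aa and H2-Ab1) and the beta chain of I-E (H2-Eb1). H2-Aa (chr17:34282744-34287827) measured 921, 79.6 and 92.8 FPKM in WT and 118, 130 and 215 FPKM in fat-1. H2-Ab1 (chr17:34263209-34269418) measured 975, 84.8 and 91.4 FPKM in WT and 114, 99.98 and 257 FPKM in fat-1. H2-Eb1 (chr17:34305877-34316199) measured 609, 66.9 and 85.2 FPKM in WT and 118, 114 and 226 FPKM in fat-1. In all 3 genes each fat-1 library was above WT replicates 2 and 3 and below WT replicate 1. H2-Eb2 was at 4.88 FPKM in WT replicate 1, at 0.388 FPKM in fat-1 replicate 3 and at most 0.0851 FPKM elsewhere, listed at 0 in 2 libraries.

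The log2 difference with 6 libraries was -0.35 ± 0.91 (SE) for H2-Aa, -0.46 ± 0.96 for H2-Ab1 and -0.07 ± 0.82 for H2-Eb1, with limma adjusted p of 0.969, 0.956 and 0.993. Without WT replicate 1 it was 0.78 ± 0.27, 0.69 ± 0.41 and 0.93 ± 0.32, with adjusted p of 0.288, 0.528 and 0.288. The 4 class II chains summed to 2509, 231 and 269 FPKM in WT and 350, 344 and 699 FPKM in fat-1. The log2 difference of the sums was -0.30 (exact two-sided permutation p = 1; 1 after adjustment over the 2 sums) and 0.81 without WT replicate 1 (exact permutation p = 0.3, smallest possible 0.1). The main transcripts of H2-Aa, H2-Ab1 and H2-Eb1 shared 0 of their 50-base words with other class II genes, so the division of reads between genes touches them less than class I.

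The 2 chains of I-A stayed in step. H2-Aa over H2-Ab1 was 0.945 in WT replicate 1, within the 0.836 to 1.30 of the other libraries. H2-Eb1 over H2-Ab1 was 0.625 in WT replicate 1, below the 0.790 to 1.14 of the others, and H2-K1 over H2-D1 was 1.34, above 0.856 to 0.919.

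**Figure D3:**
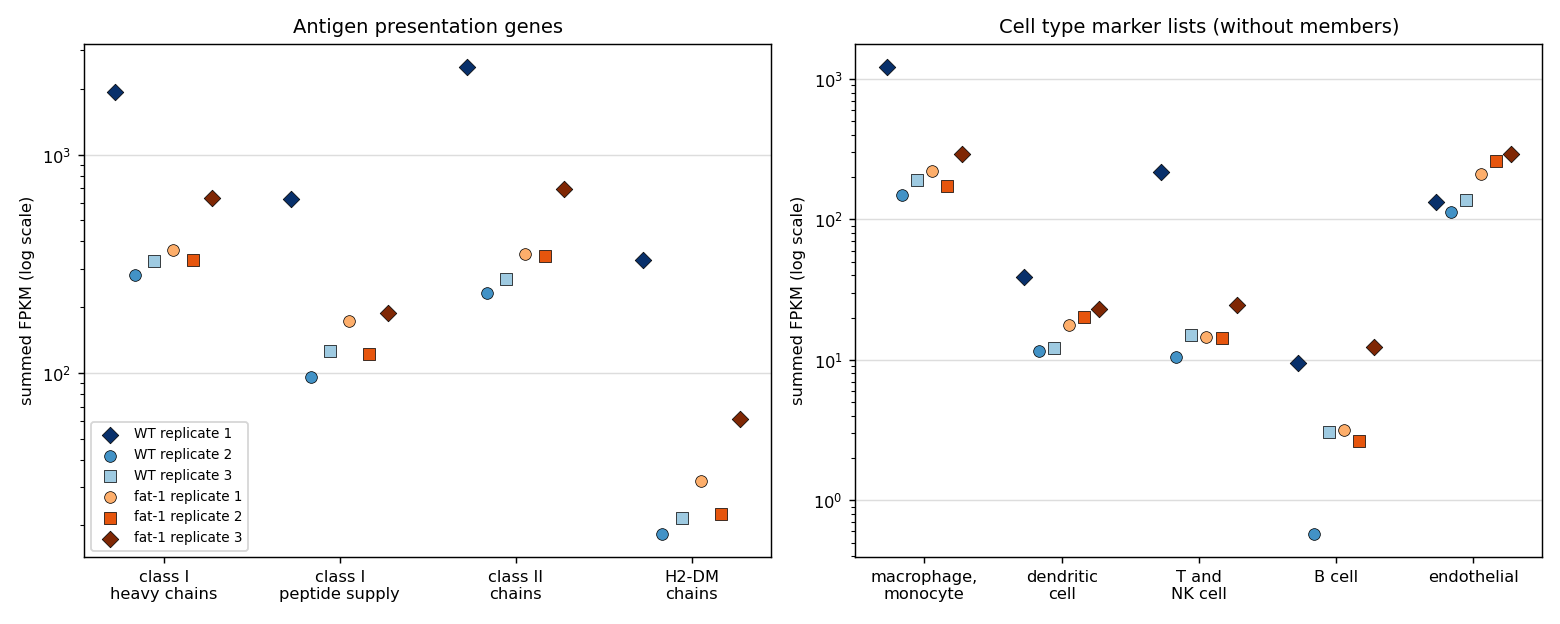
Each symbol is the summed FPKM of a gene group in 1 library on a log axis, for the antigen presentation groups on the left and for cell type marker lists on the right. WT replicate 1 is highest in all 4 antigen presentation groups, fat-1 replicate 3 is second, and endothelial markers instead separate the groups, at 114 to 138 FPKM in WT and 211 to 291 FPKM in fat-1.

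Cd74, the invariant chain that blocks the class II groove until the endosome, measured 1512, 179 and 213 FPKM in WT and 251, 233 and 389 FPKM in fat-1. It followed the chains it escorts, with all fat-1 libraries above WT replicates 2 and 3. Its log2 difference was -0.45 ± 0.79 (SE; adjusted p = 0.941), or 0.53 ± 0.24 (adjusted p = 0.407) without WT replicate 1. By encoded length its listed transcripts fell into a form of 215 residues and one of 279 residues, whose added exon encodes a thyroglobulin domain. The shorter form made up 60.8% of Cd74 FPKM in WT replicate 1 and 66.3% to 70.4% in the other 5 libraries. One transcript of the longer form, Cd74-203, was at 472 FPKM in WT replicate 1 and 73.5 FPKM in fat-1 replicate 3 and listed at 0 in the other 4; how reads were divided between transcripts can set such values.

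Ctss encodes cathepsin S, which degrades the invariant chain. It measured 192, 18.7 and 22.3 FPKM in WT and 37.2, 33.9 and 61.7 FPKM in fat-1, and its log2 difference without WT replicate 1 was 1.03 ± 0.27 (SE; adjusted p = 0.185), against -0.03 ± 0.85 with it (adjusted p = 0.999). Ctss is also on the macrophage marker list.

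H2-DM, made of H2-DMa with H2-DMb1 or H2-DMb2, exchanges the remnant of the invariant chain for other peptides. H2-DMa measured 85.0, 5.65 and 7.19 FPKM in WT and 10.3, 7.71 and 19.2 FPKM in fat-1. H2-DMb2 measured 115, 1.26 and 2.16 FPKM in WT and 2.05, 1.92 and 8.77 FPKM in fat-1, the largest excess of WT replicate 1 among the class II genes tested, at 13.2 times the next library. H2-DMb1, at 130 FPKM against 11.3 to 33.2 FPKM, exceeded the next library 3.91 times. H2-DMb2 over H2-DMb1 was therefore 0.888 in WT replicate 1 and 0.105 to 0.264 elsewhere. These genes share 27.2% of the 50-base words of H2-DMb1, so part of each value may be reads of the other.

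With 6 libraries the log2 difference was -0.41 ± 0.96 (SE; adjusted p = 0.964) for H2-DMa and -1.08 ± 1.49 (adjusted p = 0.906) for H2-DMb2. When WT replicate 1 was left out it was 0.77 ± 0.36 (adjusted p = 0.417) and 0.73 ± 0.56 (adjusted p = 0.635). H2-O, which restrains H2-DM mainly in B cells, was low. H2-Ob measured 2.52, 0.437 and 0.601 FPKM in WT and 1.03, 0.945 and 2.25 FPKM in fat-1, a log2 difference of 0.22 ± 0.39 (SE; adjusted p = 0.941), and it was not tested without WT replicate 1. H2-Oa lay between 0.271 and 1.76 FPKM. The libraries of H2-Ob kept the order seen in the other class II genes, but WT replicate 1 and fat-1 replicate 3 were close. The B cell marker Cd79a was at 5.19 and 4.38 FPKM in these 2 libraries against 0.248 to 1.50 FPKM elsewhere. It was the 1 of 7 B cell markers that was highest in WT replicate 1. The other 6 summed to 4.23 FPKM there and to 8.04 FPKM in fat-1 replicate 3.

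Ciita, the class II transactivator (chr16:10488178-10527564), was at 10.9 FPKM in WT replicate 1, at 0.825 and 0.632 FPKM in WT replicates 2 and 3, and at 0.693, 0.956 and 2.41 FPKM in fat-1. Like its class I counterpart Nlrc5, it was highest in WT replicate 1 and second in fat-1 replicate 3. It did not reach 1 FPKM in 3 libraries and was not tested.

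H2-Ke6 was at 31.4, 29.6 and 41.4 FPKM in WT and at 35.4, 32.7 and 33.2 FPKM in fat-1, with a log2 difference of 0.00 ± 0.15 (SE; limma adjusted p = 0.999), and of -0.05 ± 0.17 (adjusted p = 0.929) without WT replicate 1. It was the 1 gene of the 39 for which WT replicate 1 was not the highest library.

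Of the 39 genes, 32 had at least 1 FPKM in at least 3 libraries and were tested (22 class I, 9 class II and H2-Ke6). The other 7 were Ciita, Cd1d1, H2-M2, H2-Q10, H2-T10, H2-Eb2 and H2-Oa. WT replicate 1 alone could not carry a gene through this filter. H2-Ob passed only with its help, as it otherwise reached 1 FPKM only in fat-1 replicates 1 and 3. With 6 libraries limma called 0 of 32 at an adjusted p under 0.05, against 0.18% of 11698 genes tested. At an unadjusted p under 0.05 it was also 0 of 32, against 9.97% of genes, and in 0 of 32 did the groups not overlap, against 15.2% of genes. The difference was negative for 27 and positive for 5. Its median was -0.31 over class I, -0.39 over class II and 0.01 over all genes. The median standard error was 0.79 over the 32 genes and 0.18 over all genes.

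Without WT replicate 1, which leaves 2 WT against 3 fat-1 libraries, 31 of the genes were tested. Of these, 29 had a positive difference, against 57.7% of all genes. The median was 0.60 over all 31, 0.54 over class I, 0.75 over class II and 0.05 over all genes. Again 0 of 31 passed an adjusted p under 0.05 in limma, against 0.218% of 11475 genes, and the lowest adjusted p was 0.145, for H2-T24 (0.80 ± 0.18, SE). At an unadjusted p under 0.05, 10 of 31 were higher in fat-1 and 0 lower, against 9.05% of all genes higher. They were H2-T24, H2-Q4, H2-Q6, H2-M3, B2m, Nlrc5 and Psme1 of class I and Ctss, H2-Aa and H2-Eb1 of class II. All 3 fat-1 libraries lay above both remaining WT libraries for 10 of 22 class I and 7 of 8 class II genes tested, against 20.4% of all genes. The library left out was chosen on these genes' own values, being highest for 38 of the 39. Its removal by itself moves their differences towards fat-1. The genes also move together across libraries, so these counts describe the remaining libraries and do not test the groups.

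The library fat-1 replicate 3 was the highest of the fat-1 group for 34 of the 39 genes, so its removal by itself lowers the differences. What the direction towards fat-1 rests on was therefore not tested. Leaving out that library as well, 30 genes were tested, 26 differences were positive, the median was 0.35, and 7 genes had an unadjusted p under 0.05 in limma, all higher in fat-1, against 12.4% of 11174 genes in either direction. At an adjusted p under 0.05 it called 0 of the 30 and 0 of all genes. The summed heavy chains then differed by 0.20 and the summed class II chains by 0.47 on the log2 scale, each with an exact permutation p of 0.333, the smallest that 2 against 2 libraries allow.

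**Figure D4:**
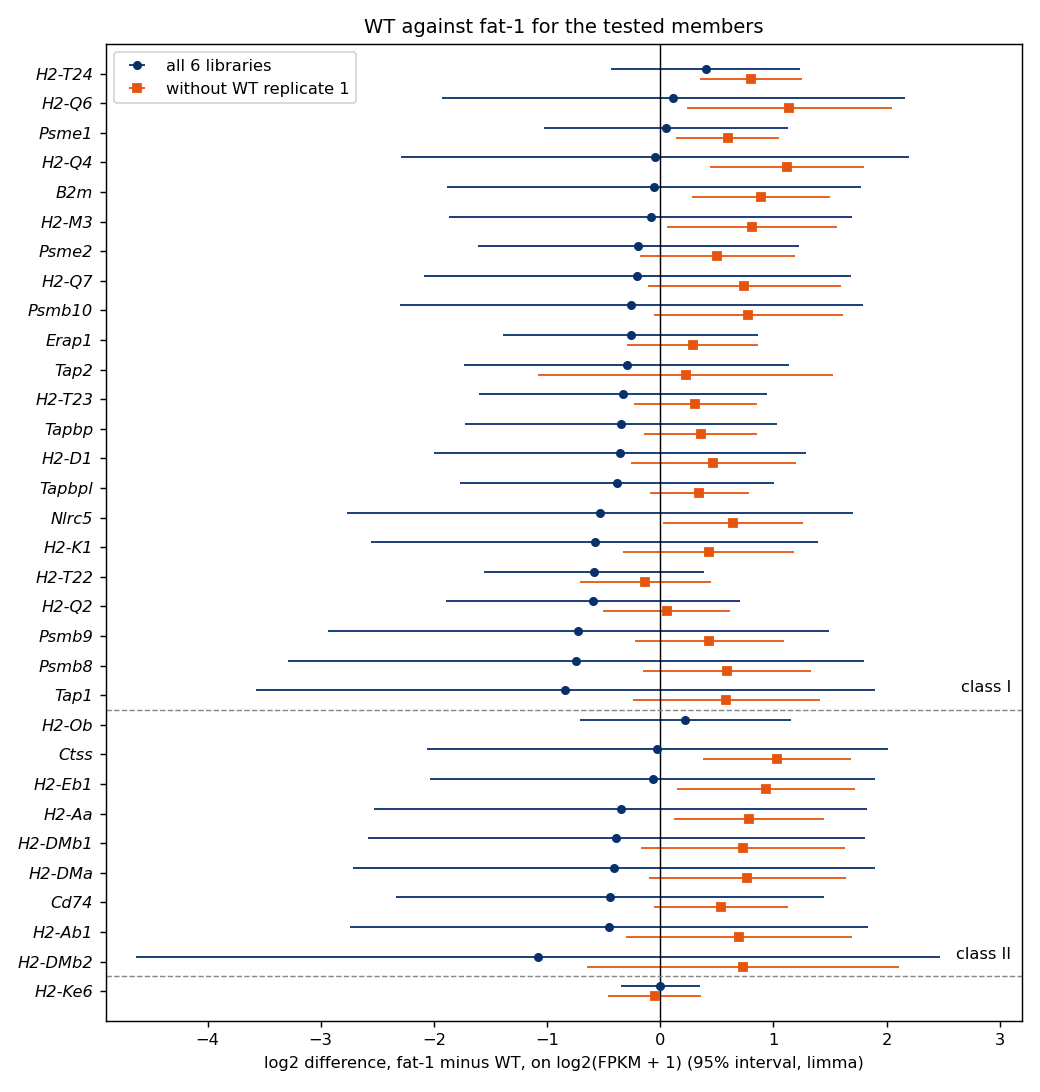
Each row is a tested gene, with the log2 difference, fat-1 minus WT on log2(FPKM + 1), and its 95% interval from limma, for all 6 libraries (blue circles) and without WT replicate 1 (orange squares). The blue intervals of all 32 genes include 0; most orange points lie to the right of 0, with shorter intervals of which 10 do not include 0 before adjustment.

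The H2 region also holds many genes that were not among the 39, which allows a comparison by position. They were set apart by symbol only. Gm11127, which lies between H2-T22 and H2-T10, thus counts among the others whatever it encodes. Between Tapbp and H2-M2 (chr17:33919332-37483552, mm10), 121 genes were listed, 28 of them among the 39. WT replicate 1 exceeded the next library at least 2-fold for 21 of the 28 and for 7 of the 93 other genes of the region. Its log2 difference from the mean of the other 5 libraries had a median of 2.39 over the 28 genes and 0.20 over the 93. The 7 others were Aif1, C4b, Gm11127, Gm20547, Lst1, Tnf and Ubd; Aif1 is a macrophage marker, C4b a complement gene and Ubd an interferon-inducible ubiquitin-like modifier, at 206 FPKM in WT replicate 1 against 3.07 to 5.37 FPKM. The remaining 11 genes of the pathways lie outside the region, among them B2m, Nlrc5, Ciita, Cd74 and Ctss.

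**Figure D5:**
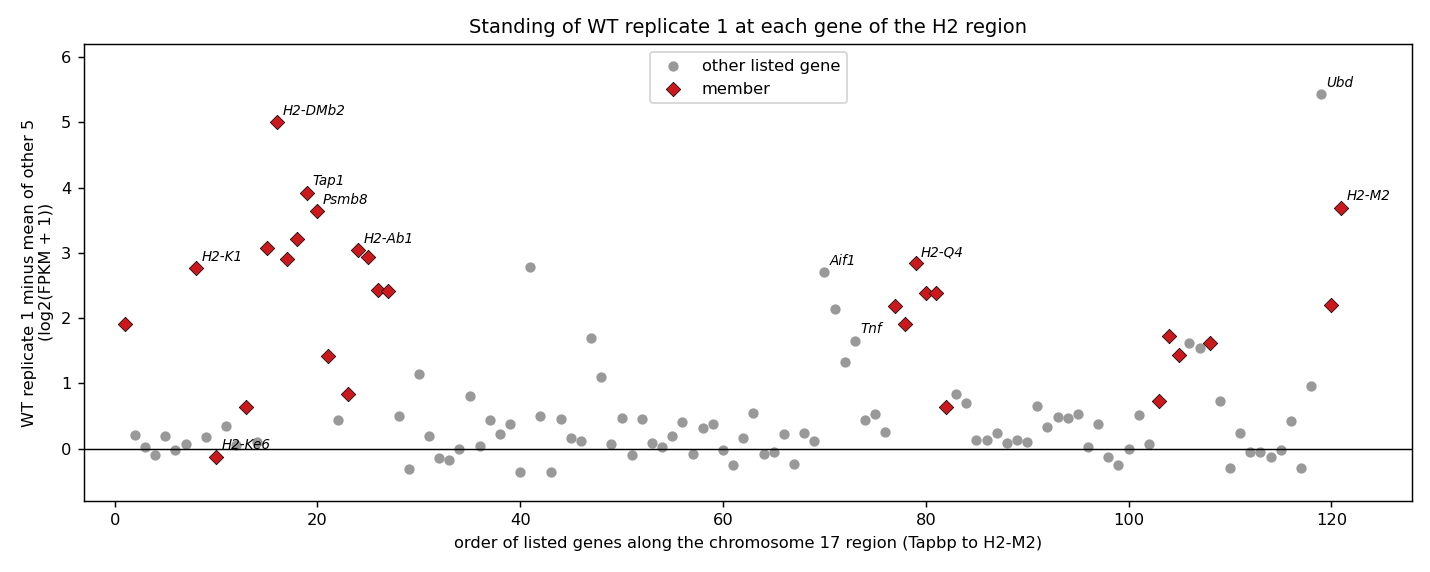
The listed genes of the H2 region are plotted in chromosomal order against the log2(FPKM + 1) of WT replicate 1 minus the mean of the other 5 libraries; red diamonds are antigen presentation genes and H2-Ke6, grey circles other genes. The red diamonds have a median of 2.39 and the grey circles one of 0.20, and H2-Ke6 lies near 0.

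Genes of the interferon and JAK-STAT pathway, a list that excludes the 39, were high in the same library. Of 40 listed genes, WT replicate 1 was the highest library for 34 and at least 2-fold above the next for 25. Over all listed genes these shares were 27% and 2.57%. The immunity-related GTPase gene Iigp1 was at 326 FPKM there against 2.03 to 7.77 FPKM, and the guanylate-binding protein gene Gbp2 at 188 FPKM against 2.72 to 7.94 FPKM. The receptor chain Ifngr1 differed little, at 33.2 FPKM against 20.9 to 25.6 FPKM. With 6 libraries 0 of 35 tested passed in limma, adjusted or not, against 0.18% and 9.97% of all genes. Without WT replicate 1, 33 of 34 were positive, against 57.7% of all genes, with a median of 0.59. At an unadjusted p under 0.05, 15 were higher in fat-1, against 9.05% of all genes, and 0 passed an adjusted one, against 0.218%. As for the antigen presentation genes, leaving out the library in which most of these genes are highest moves the differences towards fat-1.

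Other peptide loading genes and MHC regulators behaved differently. Of 35 listed genes, only Ubd exceeded the next library 2-fold in WT replicate 1, against 2.57% of all listed genes. In limma 0 of 33 tested passed an adjusted p under 0.05, against 0.18% of all genes. At an unadjusted one 6 passed, beside 9.97% of all genes. Among those 6, the neonatal Fc receptor gene Fcgrt (0.57 ± 0.13, SE; adjusted p = 0.171) and the iron regulator Hfe (1.04 ± 0.26, adjusted p = 0.208), both of class I fold, had positive differences. Azgp1, a soluble protein of class I fold, had a negative one (-0.77 ± 0.19, adjusted p = 0.208), as did the loading chaperones Calr (-0.41 ± 0.11, adjusted p = 0.259) and Pdia3 and the translocon gene Sec61a1. Without WT replicate 1 the values were 0.53 ± 0.15 (adjusted p = 0.205) for Fcgrt, 1.22 ± 0.26 (adjusted p = 0.122) for Hfe, -0.96 ± 0.15 (adjusted p = 0.0719) for Azgp1 and -0.43 ± 0.13 (adjusted p = 0.237) for Calr. In that fit 3 genes of the list were higher and 3 lower at an unadjusted p under 0.05, against 9.05% and 4.75% of all genes. At an adjusted one 0 passed, against 0.218% of all genes. Calr was at 379 to 435 FPKM in WT and 295 to 314 FPKM in fat-1, without the excess in WT replicate 1. Rfx5, of the X box binding complex, was at 0.637 FPKM in WT replicate 1 and 0.504 to 3.72 FPKM elsewhere.

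Most lists of immune cell markers summed highest in the same library. The summed FPKM of 17 macrophage and monocyte markers (Ctss left out) was 1210 in WT replicate 1 and 150 to 294 in the others, with WT replicate 1 highest for 17 of 17. Lyz2 alone gave 447 there, and the other 16 summed to 763 against 125 to 223. For 16 T and NK cell markers the sum was 216 against 10.4 to 24.5, and WT replicate 1 was highest for 16 of 16. Ccl5 alone gave 133 in WT replicate 1, and the other 15 summed to 83.8 against 5.86 to 15.5. Only 5 of these 16 genes reached 1 FPKM in 3 libraries. Dendritic cell markers (9 genes) summed to 39.2 against 11.47 to 22.9; WT replicate 1 was highest for 7 of 9, and 1 was at least 2-fold above the next library. Irf8, also on the interferon list, was the most abundant of them, and without it the sum was 18.3 against 5.95 to 11.6. Plasma cell markers (6 genes) summed to 339 against 36.5 to 115, of which Jchain alone gave 319 in WT replicate 1; the other 5 summed to 20.2 against 5.79 to 14.6. B cell markers (7 genes) were highest in fat-1 replicate 3, at 12.4, then WT replicate 1, at 9.42, against 0.575 to 3.17 elsewhere.

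Single defining markers varied widely in level between genes and libraries. C1qa was at 145 FPKM in WT replicate 1 against 20.02 to 42.7 FPKM, Adgre1 at 11.3 against 1.30 to 3.33 FPKM, Cd3e at 4.49 against 0.560 to 1.09 FPKM and Itgax at 4.56 against 1.03 to 3.40 FPKM. Other dendritic cell markers differed: Flt3 was at 1.03 FPKM in WT replicate 1 and 1.01 FPKM in fat-1 replicate 3, Zbtb46 at 2.12 FPKM in WT replicate 1 against 2.72 to 3.096 FPKM in fat-1, and Cd209a lowest in WT replicate 1, at 0.402 FPKM. The pan-leukocyte gene Ptprc was at 8.27 FPKM in WT replicate 1 and 8.26 FPKM in fat-1 replicate 3, and at 0.0206 to 0.906 FPKM in the other 4. The whole list of 7 leukocyte markers, Ptprc among them, did not show this likeness. It summed to 209 FPKM in WT replicate 1, 97.9 FPKM in fat-1 replicate 3 and 47.8 to 63.7 FPKM in the other 4. Proximal tubule markers (12 genes) were lowest in WT replicate 1, at 10418 FPKM against 12275 to 22063 FPKM; without Kap, the most abundant of them, the sum was 4111 against 4736 to 5820 FPKM. Endothelial cells can also carry class I and class II. Their 12 markers summed to 133, 114 and 138 FPKM in WT and 211, 263 and 291 FPKM in fat-1. Of the 12, Plvap was the 1 gene called (1.25 ± 0.15, SE; adjusted p = 0.0496), against 0.18% of all genes. Without WT replicate 1 that call was lost, at 1.29 ± 0.18 (adjusted p = 0.0626), and 0 of the 12 passed, against 0.218% of all genes. With 6 libraries all 12 differences were positive, and 11 had an unadjusted p under 0.05 in limma, against 9.97% of all genes. In 11 the groups did not overlap, against 15.2% of all genes. Without WT replicate 1, 9 were higher in fat-1 at an unadjusted p under 0.05, against 9.05% of all genes. The part of any of these cell types in the antigen presentation values was not tested, and in whole kidney RNA more cells of a type cannot be told apart from more RNA per cell.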

How the data were processed

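The authors' deposited tables, 1 per library, give FPKM per transcript. Per the submitters' processing notes, the mm10 build, HISAT2 2.0.5, DESeq2 1.20.0 and featureCounts 1.5.0-p3 were used; what computed the FPKM was not given in the sources used here. Each of the 27486 transcripts listed reaches 0.5 FPKM in some library. In 4 tables, 64 lines carried gene symbols turned into dates, which were restored from the other tables. FPKM were summed per gene identifier. limma 3.58.1 (R 4.3.3; intensity trend, robust variance) was fitted on log2(FPKM + 1) over the 11698 genes that reached 1 FPKM in 3 or more libraries, without rescaling; differences of low genes are understated on this scale. P-values were adjusted by Benjamini-Hochberg over every gene tested, with 0.05 as threshold. Transcript sequences came from GENCODE M21 and promoters from RefSeq.

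The genes, role lists and marker lists were chosen with earlier results of these data known. Values in every library are given for core genes of each role and for the 2 with the smallest p in each role. They were also to be given for those with an unadjusted p under 0.05 or groups that do not overlap, with 6 libraries. Most of the rest are given by range. The FPKM of H2-Q2, H2-Q6, H2-Q7, Psmb10, Psme1 and Psme2 enter only sums, ratios, counts and fits. Some further values were added after they were seen. Alternatives covered pseudocount, filter, scaling, robust estimation, transcript choice and libraries left out.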

Additional observations from a re-analysis of the deposited data

How the results depend on the processing

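In every alternative run, limma called 0 of the antigen presentation genes at an adjusted p under 0.05. At an unadjusted one it also called 0, unless WT replicate 1 was left out. Without WT replicate 1 it called 10, where 1583 of all 11475 genes passed. Without WT replicate 1 and fat-1 replicate 3 together it called 7, where 12.4% of all genes passed. With other scalings the differences were negative for 27 or 28 of the 32 genes. Over all genes the number called was 21; it was 4 with no filter on low values, 8 with median-of-ratios factors, 11 with upper quartile factors, 39 with quantile normalization, 3 with the highest transcript of each gene, 0 without WT replicate 1 and fat-1 replicate 3 together, and 0 to 25 when a single library was left out. With each library left out in turn, the log2 difference, fat-1 minus WT, ranged from -0.63 to 0.89 for B2m, from -1.002 to 0.53 for Cd74, from -0.97 to 0.78 for H2-Aa, from -1.06 to 0.69 for H2-Ab1, from -0.82 to 0.47 for H2-D1, from -1.08 to 0.77 for H2-DMa, from -2.11 to 0.73 for H2-DMb2, from -0.65 to 0.93 for H2-Eb1, from -1.14 to 0.43 for H2-K1, from -0.0191 to 0.36 for H2-Ob, from -1.17 to 0.64 for Nlrc5, from -1.47 to 0.59 for Psmb8, from -1.48 to 0.43 for Psmb9 and from -1.83 to 0.58 for Tap1. The summed class I heavy chains ranged from -0.91 to 0.49 and the summed class II chains from -0.91 to 0.81. The upper end came from leaving out WT replicate 1 except for H2-Ob. H2-Ob could be fitted only without WT replicate 2, WT replicate 3 or fat-1 replicate 2, and turned negative without WT replicate 2. H2-T24 ranged from 0.11 to 0.80 with single libraries left out. B2m also turned positive without fat-1 replicate 2 (0.11), and H2-Eb1 without fat-1 replicate 1 (0.08) or 2 (0.11). Without WT replicate 1 and fat-1 replicate 3 together the values were 0.68 for B2m, 0.31 for Cd74, 0.52 for H2-Aa, 0.27 for H2-Ab1, 0.18 for H2-D1, 0.43 for H2-DMa, 0.16 for H2-DMb2, 0.61 for H2-Eb1, 0.13 for H2-K1, 0.30 for Psmb8, 0.29 for Psmb9 and 0.68 for Tap1, and 0.20 and 0.47 for the 2 sums. The cause of the height of WT replicate 1 was not tested. No paired analysis was possible because no label ties a WT library to a fat-1 library: the fat-1 titles carry other numbers, and their replicate numbers here only follow the order of deposit. The read depth is unknown, so the precision of genes near or below 1 FPKM, such as Ciita and H2-T10, cannot be given.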
